A study of Homo sapiens with 9 samples.

Results

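The genes described here encode the oxygen sensors that mark hypoxia-inducible factors (HIF) for removal and the ubiquitin ligase that reads the mark. They are the 4 HIF hydroxylases EGLN1, EGLN2, EGLN3 and HIF1AN and the 5 components of the VHL ligase, VHL, CUL2, RBX1, TCEB1 and TCEB2. They were taken by name from the table of gene counts, in which elongin C and elongin B carried the older symbols TCEB1 and TCEB2 (now ELOC and ELOB), and all 9 were among its 27671 genes. The table came from A498, an established human cell line of clear cell renal cell carcinoma (ccRCC) that lacks functional VHL protein. Cells were infected with a lentiviral pLKO.1 vector that expressed a control short hairpin RNA (group shControl, labelled as wild type), a hairpin against BMAL1 (shBMAL1) or a hairpin against ARNT (shARNT), and all 3 groups were selected and kept in puromycin. Each group had 3 libraries labelled as biological replicates, and each depletion rested on 1 hairpin, so that effects of the hairpin and of the loss of its target cannot be told apart. The study asked how far BMAL1, a core circadian clock factor, shares with ARNT the role of partner for HIF2α.

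In cells with oxygen, the prolyl hydroxylases EGLN1, EGLN2 and EGLN3 (PHD2, PHD1 and PHD3) hydroxylate prolines of HIFα. VHL binds the hydroxylated protein and, through elongin B, elongin C, the cullin scaffold CUL2 and the RING protein RBX1, has it ubiquitinated and degraded. HIF1AN (FIH) hydroxylates an asparagine of HIFα, which blocks its coactivators. EGLN3 and EGLN1 are themselves known HIF targets, and in ccRCC the loss of VHL leaves HIFα stable whether or not it is hydroxylated.

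The bases before the annotated starts of the 3 prolyl hydroxylase genes are shown here. Whether they bear on the levels below was not tested. The sequences are those of RefSeq on GRCh38.p14, each of 250 bases, 5′ to 3′ on the strand of the gene and ending at the base before the start. Capitals mark the core of the hypoxia response element, ACGTG or GCGTG on either strand. The EGLN1 stretch is chr1:231422288-231422537 (minus strand), the EGLN2 stretch, the first of 2 listed for the gene, is chr19:40798941-40799190 (plus strand), and the EGLN3 stretch is chr14:33951075-33951324 (minus strand).
EGLN1: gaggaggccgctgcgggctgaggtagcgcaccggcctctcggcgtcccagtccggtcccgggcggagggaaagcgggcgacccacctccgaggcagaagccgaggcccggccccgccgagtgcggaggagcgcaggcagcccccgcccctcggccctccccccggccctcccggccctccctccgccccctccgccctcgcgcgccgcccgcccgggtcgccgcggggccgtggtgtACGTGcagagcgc
EGLN2: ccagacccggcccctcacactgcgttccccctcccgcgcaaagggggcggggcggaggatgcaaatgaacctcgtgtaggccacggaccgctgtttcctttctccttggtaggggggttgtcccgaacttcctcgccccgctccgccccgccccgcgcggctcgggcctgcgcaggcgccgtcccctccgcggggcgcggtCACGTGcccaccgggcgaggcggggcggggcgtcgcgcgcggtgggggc
EGLN3: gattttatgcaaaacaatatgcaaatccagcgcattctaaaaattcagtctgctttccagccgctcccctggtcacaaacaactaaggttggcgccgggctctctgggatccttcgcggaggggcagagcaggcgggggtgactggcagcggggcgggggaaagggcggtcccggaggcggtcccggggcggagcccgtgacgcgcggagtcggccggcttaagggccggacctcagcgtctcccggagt

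The searched window ran from 250 bases before to 50 bases after the start, and 48.4% of 34796 RefSeq promoters held at least 1 core in it. EGLN1 held 1 core, at position -13. EGLN2 held 2 overlapping cores, at -49 and -48, which together spell CACGTG, the E-box that CLOCK and BMAL1 bind, present in 7.2% of promoters. The promoter of the read-through gene RAB4B-EGLN2 held 2 cores and no E-box. The other EGLN2 promoter, the EGLN3 promoter and the HIF1AN promoter held no core. Among the ligase genes, RBX1 held 4 cores and 1 E-box, TCEB2 held 2 cores, and the 3 promoters of CUL2 held none. A match of these letters is a description of the window and not a measured site.

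Library totals were close, from 35269857 to 36099083 counts, and 15551 genes passed the filter on low counts. The scaling factors from trimmed means of M values (TMM) were lowest for shControl (0.932 to 0.944), followed by shBMAL1 (0.961 to 0.971), and highest for shARNT (1.10 to 1.11), so that levels of shARNT depend on the scaling. Levels are given as CPM, which is each count relative to its TMM-scaled library size. Replicate 1 of shControl stood apart from the other controls, with a chi-square per gene of 18.1 and 17 against them where they had 4.55 between themselves and the pairs within the depletions had 4.29 to 9.94. Leaving it out changed no call of the 8 tested genes in any contrast. ARNT was left at 18.8% of its control level in shARNT, and BMAL1 (listed as ARNTL) was left at 30.9% in shBMAL1. BMAL1 rose in shARNT to 146% of its control level (log2 fold change 0.55), and ARNT was at 64.0% in shBMAL1 (-0.65). Of 8 kidney epithelial markers, 7 reached 1 CPM in every group and LRP2 was at 0. Their summed level, mostly that of KRT8 and KRT18, lay at 1910 to 1950 CPM in shControl, at 1700 to 1790 CPM in shBMAL1 and at 1300 to 1400 CPM in shARNT. In shARNT 5 of the 7 tested markers were called lower and 1 higher, against 41.3% and 40.5% of all tested genes. CDH6 had a log2 fold change of -2.76 there, KRT8 had -0.75 and KRT18 had -0.0070. Single markers went against the sum, since PAX8 rose in shARNT (log2 fold change 1.48) and CDH16 and KRT19 rose in shBMAL1 (1.55 and 0.97). Of 4 ccRCC markers 3 reached 1 CPM, with sums of 6130 to 6180, 4310 to 4820 and 855 to 913 CPM in the same order. Most of each sum was VIM, at 5974, 4309 and 812 CPM. In shBMAL1, 3 of the 4 were called lower, against 31.5% of all tested genes, but NNMT rose from 103 to 188 CPM (log2 fold change 0.86). Of 7 blood and endothelial markers only CD68 reached 1 CPM, and CD3E and HBB were at 0, but CD68 itself went from 1865 CPM in shControl to 142 CPM in shARNT. Of 5 fibroblast markers 2 reached 1 CPM in shControl and 1 in each depletion, with sums of 232 to 245, 34.2 to 37.3 and 40.7 to 50.7 CPM and LUM at 0. The part of these shifts in the results below was not tested. In bulk RNA, fewer cells of a kind and less RNA per cell cannot be told apart.

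The depletions were compared with shControl and then directly with each other, and a gene was called at an adjusted p under 0.1 (edgeR quasi-likelihood test, Benjamini-Hochberg over all 15551 genes). Of the 9 genes, 8 passed the filter, and EGLN2 did not. In shARNT against shControl, 5 were called higher and 2 lower, against a background of 40.5% of all tested genes called higher and 41.3% lower. After BMAL1 depletion, 6 rose and 0 fell by edgeR (0 fell at an unadjusted p under 0.05, and 0 by DESeq2), against 31.9% and 31.5% of all genes. In the direct contrast of shARNT with shBMAL1, 4 were called higher and 4 lower, against 40.1% and 41.1%. Their median log2 fold changes were 0.41, 0.33 and 0.18, and those of all tested genes were -0.0072, -0.0015 and -0.010. With most genes of these cells called, a call by itself sets no member apart, and sizes are given for each. The 3 control libraries served both depletions, and the direct contrast compares the means of the depletions alone, although the controls still entered its filter, scaling and spread.

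**Figure D1:**
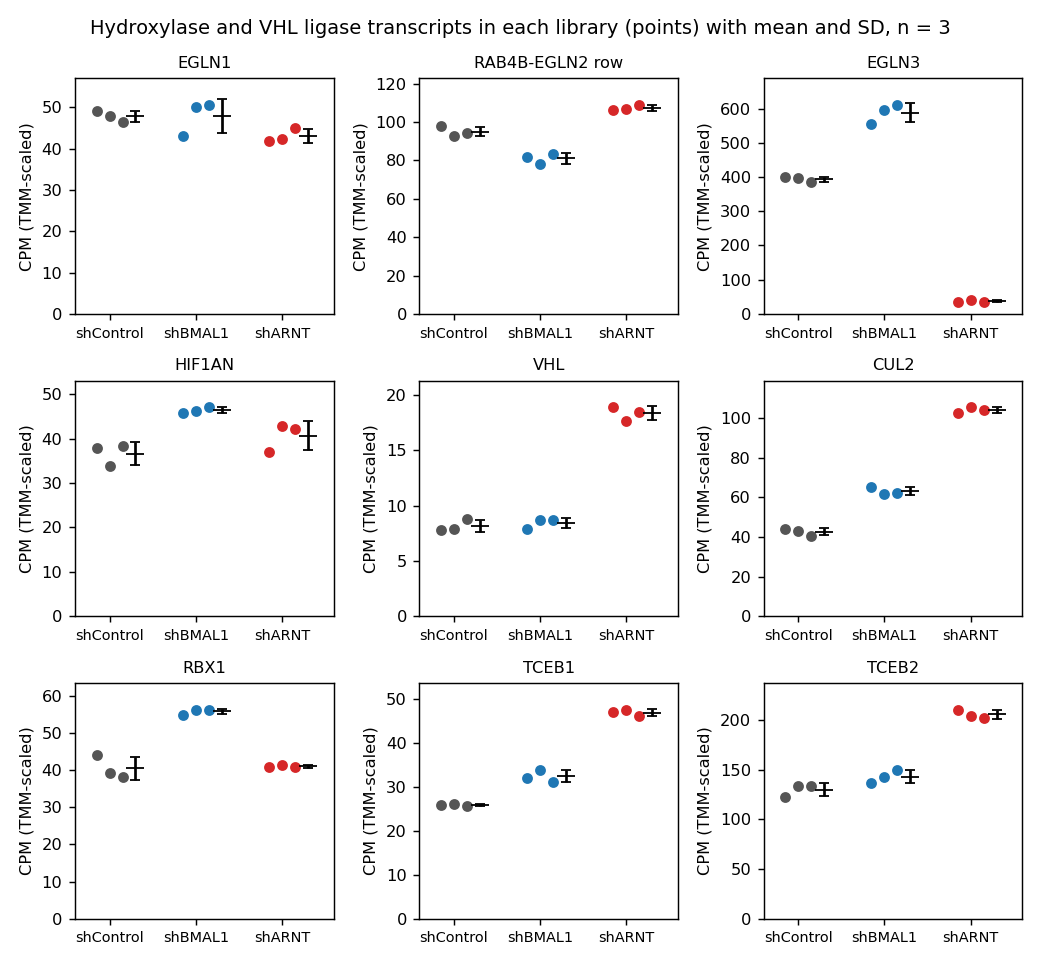
Level of each gene in every library, in CPM of the TMM-scaled library size on axes that start at 0, with points for the 3 libraries of a group and a bar for their mean and SD. EGLN3 lay between 34.4 and 39.7 CPM in shARNT and at 385 CPM or more in every other library, while VHL, CUL2, TCEB1 and TCEB2 were highest in the 3 shARNT libraries. EGLN2 itself had at most 2 counts and is replaced by the RAB4B-EGLN2 row.

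EGLN3 encodes PHD3, a prolyl hydroxylase that HIF strongly induces in many cells (chromosome 14, 34393433 to 34931980, minus strand, GRCh37). Its level was 399, 397 and 385 CPM in the shControl libraries, 557, 597 and 612 CPM in shBMAL1 and 35.4, 39.7 and 34.4 CPM in shARNT. The 3 groups did not overlap, and the depletions moved it in opposite directions from the control. ARNT depletion lowered it from 394 ± 7.79 to 36.5 ± 2.80 CPM (SD, n = 3), 9.28% of the control level (log2 fold change -3.43, SE 0.0524, adjusted p = 1.3e-21). In shBMAL1 its level rose 1.495-fold, up to 588 ± 28.6 CPM (log2 fold change of 0.58 with SE 0.0458, adjusted p = 1.35e-09). Set directly against each other, the depletions differed by -4.01 (SE 0.0533, adjusted p = 1.75e-22), a 16.1-fold lower level in shARNT than in shBMAL1. These values rested on 1365 to 1570 counts in shARNT, 12709 to 13285 in shControl and 19030 to 20818 in shBMAL1.

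The 3 HIF targets picked for comparison differed from EGLN3 in shBMAL1. VEGFA, which encodes the angiogenic growth factor, had a log2 fold change of -3.88 after ARNT depletion and -0.46 after BMAL1 depletion. CA9, a carbonic anhydrase of the cell surface, had -6.17 and -1.34. NDRG1, a stress-induced HIF target, had -5.03 and -1.24. All 3 were thus called lower in both depletions, where EGLN3 was called lower in one and higher in the other. LDHA (-2.81 and 0.49) and ADM (-0.82 and 0.39), chosen after their values were seen, were called in the same opposite directions as EGLN3. Of 12 reference HIF targets, 10 were called lower and 2 higher in shARNT (median log2 fold change -1.90). In shBMAL1 6 were lower and 5 higher (median -0.14). The direct edgeR contrast had 11 lower and 0 higher (0 higher at an unadjusted p under 0.05, 0 by DESeq2, median -1.47). Beside this list, 41.3%, 31.5% and 41.1% of all tested genes were called lower and 40.5%, 31.9% and 40.1% higher. BNIP3, a mitophagy receptor, was the largest rise of that list in shARNT (0.64), and PGK1, a glycolytic enzyme, was the largest in shBMAL1 (0.88), where it stood at 1880 CPM against 1019 CPM in shControl and 866 CPM in shARNT. PGK1 was thus also called in opposite directions, but its fall in shARNT (-0.23) was 0.0027 under scaling by library totals alone.

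EGLN1 encodes PHD2, the main prolyl hydroxylase for HIF1α in most cells (chromosome 1, 231499497 to 231558033, minus strand). Its level was 49.0, 48.0 and 46.4 CPM in shControl, 43.2, 50.05 and 50.7 CPM in shBMAL1 and 41.9, 42.2 and 44.97 CPM in shARNT. The shARNT libraries lay just below all control libraries, and 1 shBMAL1 library lay among them. The log2 fold change of shARNT was -0.15 (SE 0.0612, adjusted p = 0.0299) against the control and -0.16 in the direct contrast (adjusted p = 0.0256). Both turned positive when libraries were scaled by their totals alone, to 0.086 (adjusted p = 0.204) and 0.034 (adjusted p = 0.618), and the direct call was lost without shBMAL1 replicate 2 (-0.12, adjusted p = 0.11) or replicate 3 (-0.12, adjusted p = 0.111). In shBMAL1 no change was detected (0.0048, 95% interval -0.12 to 0.13, adjusted p = 0.953), and the sign of this value varied with the setting. An unnamed protein-coding gene on the same strand shares 55.8% of the exonic bases of EGLN1 in GENCODE, and the sources used here do not say how such bases were counted.

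EGLN2 encodes PHD1 (chromosome 19, 41304901 to 41314339, plus strand). Its own row was almost empty, with 0, 2 and 1 counts in shControl, 0 in each shBMAL1 library and 2, 0 and 0 in shARNT. RAB4B-EGLN2, chosen after its values were seen, is an annotated read-through gene (41284147 to 41314323) that joins the upstream gene RAB4B to EGLN2. Of the 2100 bases of the canonical EGLN2 transcript, 2012 (95.8%) lie in exons of RAB4B-EGLN2. This row held 95.1% to 96.5% of the 2818 to 4527 reads of the EGLN2, RAB4B-EGLN2, RAB4B and MIA-RAB4B rows together in each library. The RAB4B row held 51.8 to 213 reads per library. RAB4B exons share 34.8% of the exonic bases of RAB4B-EGLN2. A count table cannot tell EGLN2 or RAB4B transcripts from read-through transcripts, so the near-zero EGLN2 row was no measure of the gene. The RAB4B-EGLN2 row, which may also hold reads of RAB4B, is reported in its place as uncertain.

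RAB4B-EGLN2 stood at 97.9, 93.0 and 94.3 CPM in shControl, 81.7, 78.0 and 83.5 CPM in shBMAL1 and 106, 107 and 109 CPM in shARNT. The groups did not overlap, with shBMAL1 lowest and shARNT highest. The row was lower in shBMAL1 (log2 fold change -0.23, SE 0.0440, adjusted p = 1.55e-04) and higher in shARNT (0.18, SE 0.0434, adjusted p = 0.00106). The difference between the depletions was 0.41 (adjusted p = 4.31e-08). Its directions in the 2 depletions were thus the reverse of those of EGLN3. Adding the counts of the EGLN2 row, or of all 4 rows, kept each direction and call.

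Because EGLN3 was the most abundant in the control and moved most, the make-up of the EGLN1, EGLN3 and RAB4B-EGLN2 rows shifted. Levels were divided by the length of the longest annotated transcript to compare genes. Of the summed CPM per kilobase of EGLN1, EGLN3 and the RAB4B-EGLN2 row, the part of EGLN3 was 75.0% to 75.8% in the shControl libraries, rising to between 83.2% and 84.1% in shBMAL1 and dropping to between 19.5% and 22.4% in shARNT. The RAB4B-EGLN2 row made up 18.2% to 18.9%, 11.3% to 12.5% and 61.9% to 63.7%. EGLN1 made up 5.96% to 6.06%, 4.24% to 4.64% and 15.7% to 16.8%. The largest share thus passed from EGLN3 to the RAB4B-EGLN2 row in shARNT. With exon-union lengths EGLN3 made up 57.0% to 58.0%, 68.7% to 70.1% and 9.66% to 11.3%, with the same order of groups. These are shares of transcript and not of enzyme, and RAB4B reads may be part of the RAB4B-EGLN2 share.

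**Figure D2:**
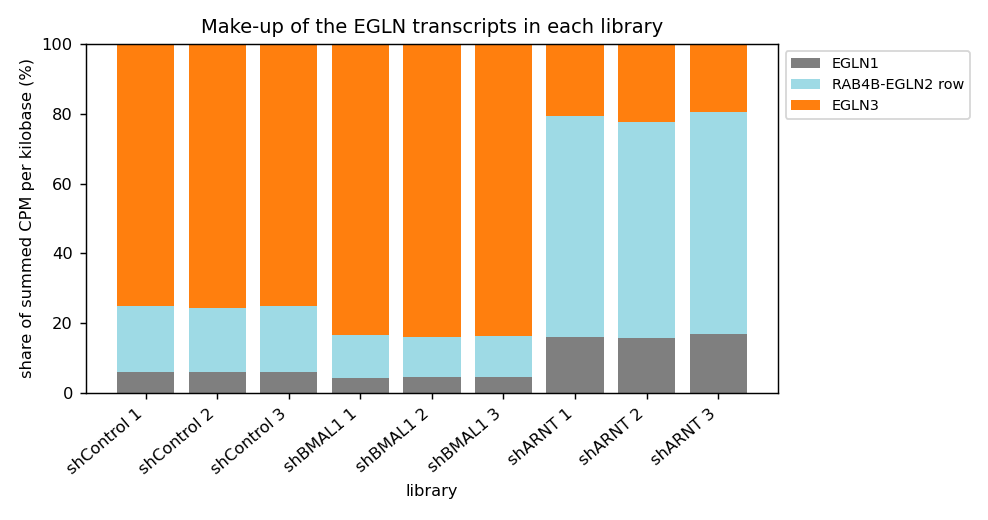
Stacked bars give, for each of the 9 libraries, the share (%) of EGLN1, the RAB4B-EGLN2 row and EGLN3 in their summed CPM per kilobase of longest transcript. EGLN3 holds at least 75.0% of each shControl bar, at least 83.2% of each shBMAL1 bar and at most 22.4% of each shARNT bar.

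HIF1AN encodes the asparaginyl hydroxylase FIH (chromosome 10, 102288829 to 102319755, plus strand). Its level was 37.9, 33.7 and 38.2 CPM in shControl, 45.7, 46.2 and 47.1 CPM in shBMAL1 and 36.9, 42.8 and 42.2 CPM in shARNT. All shBMAL1 libraries were above all others, whereas shARNT overlapped the control. In shBMAL1 it rose by 0.34 on the log2 scale (SE 0.0646, adjusted p = 1.48e-04). In shARNT the difference was 0.15 (adjusted p = 0.0402), and the call was lost without shControl replicate 2 (0.092, adjusted p = 0.236), shARNT replicate 2 (0.11, adjusted p = 0.17) or shARNT replicate 3 (0.12, adjusted p = 0.124). Between the depletions HIF1AN differed by -0.19 (adjusted p = 0.0109), a difference that vanished under scaling by library totals alone (0.000902, adjusted p = 0.99).

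Of the 5 ligase genes, 4 were called higher in shARNT and 4 in shBMAL1, against 40.5% and 31.9% of all tested genes. RBX1 was the exception in the former and VHL in the latter. VHL, the substrate receptor (chromosome 3, 10183462 to 10195351, plus strand), had 260, 260 and 291 counts in shControl, 270, 299 and 297 in shBMAL1 and 749, 698 and 733 in shARNT. Its level was 7.81, 7.90 and 8.81 CPM, 7.90, 8.68 and 8.73 CPM, and 18.9, 17.6 and 18.5 CPM in the same order. The shBMAL1 libraries lay within the control range, and the shARNT libraries lay far above both. In shARNT it rose 2.24-fold (log2 fold change 1.17, SE 0.0875, adjusted p = 1.59e-10), and shARNT exceeded shBMAL1 by 1.120 on the log2 scale (SE 0.0869, adjusted p = 2.79e-10). In shBMAL1 no change was detected (0.046, 95% interval -0.15 to 0.24, adjusted p = 0.697). VHL had the lowest level per kilobase of the tested genes in shControl, and its fold changes had the largest SE of the set. An opposite-strand long noncoding RNA shares 23.5% of its exonic bases, and whether the counts used strand is not given in the sources used here.

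CUL2, the scaffold of the complex (chromosome 10, 35297432 to 35415934, minus strand), rose in steps. Its level was 44.2, 42.9 and 40.7 CPM in shControl, 65.4, 61.7 and 62.2 CPM in shBMAL1 and 102, 106 and 104 CPM in shARNT, with no overlap of groups. The log2 fold change was 0.57 in shBMAL1 (1.48-fold, adjusted p = 5.55e-09) and 1.29 in shARNT (2.44-fold, SE 0.0484, adjusted p = 2.02e-15), and the depletions differed by 0.72 (adjusted p = 1.68e-11).

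The elongins, which link VHL to CUL2, had the same order. TCEB1, elongin C (chromosome 8, 74851404 to 74884542, minus strand), stood at 26.0, 26.2 and 25.8 CPM in shControl, 32.2, 34.0 and 31.3 CPM in shBMAL1 and 47.1, 47.7 and 46.2 CPM in shARNT. On the log2 scale it rose by 0.32 after BMAL1 depletion (adjusted p = 6.55e-05) and by 0.85 after ARNT depletion (adjusted p = 1.36e-11), and the depletions differed by 0.53 (adjusted p = 1.72e-08). TCEB2, elongin B (chromosome 16, 2821415 to 2827290, minus strand), stood at 122.6, 133 and 134 CPM, 136, 143 and 149 CPM, and 211, 205 and 202 CPM. It rose by 0.14 after BMAL1 depletion (adjusted p = 0.0138) and 0.66 after ARNT depletion (adjusted p = 3.03e-11), with a difference of 0.53 between the depletions (adjusted p = 1.18e-09). For both elongins all libraries of shARNT were above all libraries of shBMAL1, which were above all control libraries. GENCODE lists 35 pseudogenes named after elongin C and 4 named after elongin B, and reads shared with such copies make these values uncertain.

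RBX1, the RING protein that recruits the ubiquitin-conjugating enzyme (chromosome 22, 41347351 to 41369313, plus strand), departed from the other ligase genes. Its level was 43.9, 39.2 and 38.2 CPM in shControl, 54.9, 56.1 and 56.3 CPM in shBMAL1 and 40.9, 41.4 and 40.7 CPM in shARNT. It was higher in every shBMAL1 library than in any other, and the shARNT libraries lay inside the control range. Its log2 fold change was 0.46 in shBMAL1 (SE 0.0562, adjusted p = 6.46e-07) and 0.019 in shARNT (95% interval -0.10 to 0.14, adjusted p = 0.761), the latter with a sign that varied with the setting. Between shBMAL1 and shARNT it differed by -0.44 (SE 0.0556, adjusted p = 4.04e-07). Scaling by library totals alone gave 0.26 in shARNT (adjusted p = 4.66e-04). Under that scaling the median of all genes moved by 0.24 (shARNT), 0.047 (shBMAL1) and 0.19 (direct contrast). In shARNT 6 of the 8 genes were then called higher and 1 lower, in place of 5 and 2. Of all tested genes, 50.3% were then called higher and 32.9% lower, in place of 40.5% and 41.3%.

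**Figure D3:**
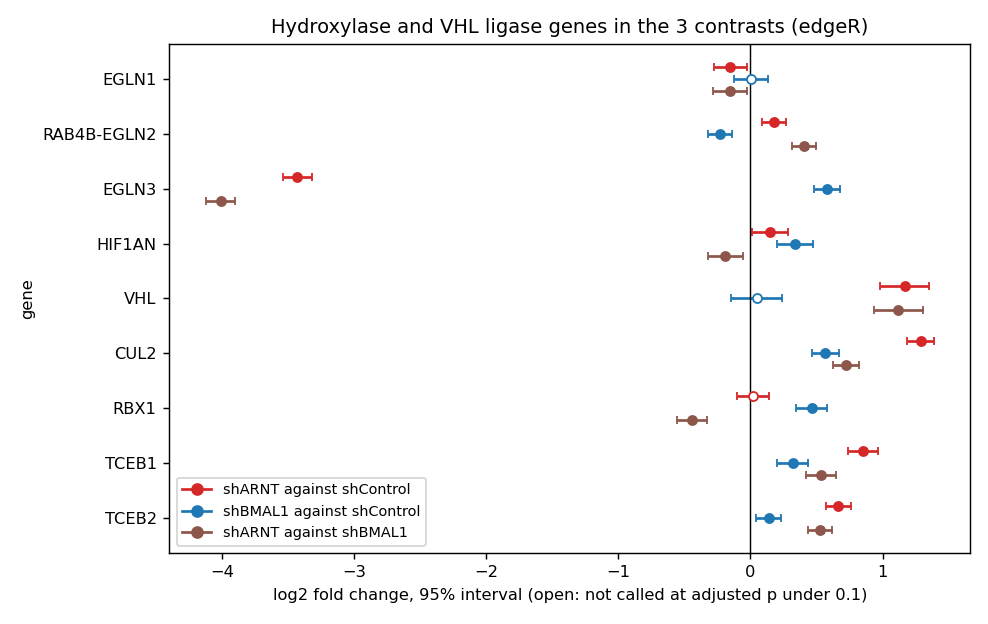
Log2 fold change of each gene with its 95% interval for each depletion against the control and for the depletions against each other, from 1 edgeR fit of 9 libraries, with open points for genes not called. EGLN3 lies at -3.43, 0.58 and -4.01, far outside the range of the others, which lie between -0.44 (RBX1, direct contrast) and 1.29 (CUL2, shARNT against shControl).

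Per kilobase of longest transcript, the control cells expressed EGLN3 most (138 ± 2.73 CPM per kilobase, n = 3), followed by TCEB2 (36.05 ± 1.75), the RAB4B-EGLN2 row (34.3 ± 0.921), RBX1 (21.6 ± 1.64), EGLN1 (11.0 ± 0.303), CUL2 (9.08 ± 0.381), TCEB1 (4.43 ± 0.0386), HIF1AN (2.83 ± 0.193) and VHL (1.81 ± 0.122). TCEB2 and the RAB4B-EGLN2 row did not differ beyond their spread. In shARNT EGLN3 stood at 12.8 ± 0.984 CPM per kilobase, below TCEB2 (57.1 ± 1.20), the RAB4B-EGLN2 row (38.7 ± 0.539), CUL2 (22.2 ± 0.326) and RBX1 (21.9 ± 0.201), of which CUL2 and RBX1 did not differ beyond their spread. The order within the ligase depends on the length used, since the canonical transcripts of the elongins are short. With canonical lengths, chosen after seeing the data, TCEB2 in shControl stood at 133 ± 6.49 CPM per kilobase and TCEB1 at 12.9 ± 0.113. EGLN3 was first and VHL last in shControl with each of the 3 lengths tried.

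The substrates of the pathway changed as well. HIF1A, which encodes HIF1α, rose by 1.48 on the log2 scale after ARNT depletion and 1.59 after BMAL1 depletion (adjusted p = 5.02e-17 and 2.43e-16). EPAS1, which encodes HIF2α, fell by 2.22 and 0.57 (adjusted p = 2.95e-18 and 1.55e-08). ARNT2, a paralog of ARNT, fell by 1.29 in shARNT (adjusted p = 2.35e-11), with -0.18 for BMAL1 depletion (adjusted p = 0.0678), a call lost under scaling by library totals alone. HIF3A, a HIFα gene of low level here, had only 2 to 31 counts per library. It had 28, 31 and 14 in shBMAL1 and at most 8 elsewhere. By edgeR it was called higher in shBMAL1 (1.95, SE 0.483, adjusted p = 0.00176) and was not called in shARNT (-0.82, adjusted p = 0.247). ARNT, the target of 1 hairpin, had -2.41 in shARNT and -0.65 in shBMAL1. Of these 5 genes, all 5 were called lower in shARNT than in shBMAL1, against 41.1% of all tested genes. They include ARNT, which the shARNT hairpin targets, and HIF3A, which rested on few counts. HIF1A had the smallest difference (-0.11, adjusted p = 0.0254), which turned to 0.081 (adjusted p = 0.0766) under scaling by library totals alone.

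Genes around the hydroxylases and the ligase were taken from 6 lists with 72 genes, of which 71 were tested. In shARNT 45 were called higher and 16 lower, with a median log2 fold change of 0.31. In shBMAL1 31 were higher and 18 lower (median 0.035), and in the direct contrast 44 were higher and 20 lower (median 0.19). All tested genes had medians of -0.0072, -0.0015 and -0.010 and the called shares given above. Scaling by library totals alone gave 57 higher and 11 lower in shARNT, and 49 and 12 in the direct contrast, against 50.3% and 32.9%, and 48.0% and 34.0%, of all genes.

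Of 13 regulators and relatives of the hydroxylases, 7 were higher and 5 lower in shARNT, and 5 higher and 4 lower in shBMAL1. These were 53.8% and 38.5%, and 38.5% and 30.8%, against 40.5% and 41.3%, and 31.9% and 31.5%, of all tested genes. P4HTM, a transmembrane prolyl hydroxylase related to the EGLN enzymes, had the largest fall of the direct contrast, from 37.9 CPM in shBMAL1 to 9.10 CPM in shARNT (log2 fold change -2.06, adjusted p = 1.37e-15). Like EGLN3 it was lower in shARNT (-1.74) and higher in shBMAL1 (0.32, adjusted p = 5.19e-04). OS9, a lectin of endoplasmic reticulum quality control described as a partner of the prolyl hydroxylases, fell from 848 to 241 CPM in shARNT (-1.81, adjusted p = 1.46e-19) and had 0.012 in shBMAL1 (adjusted p = 0.794). AJUBA and LIMD1 encode LIM-domain scaffolds that bring EGLN proteins and VHL together. AJUBA was called in opposite directions, at 14.0 CPM in shControl, 6.33 CPM in shBMAL1 (-1.15, adjusted p = 2.86e-08) and 35.3 CPM in shARNT (1.33, adjusted p = 8.38e-11). LIMD1 was higher in both, with 0.60 for BMAL1 depletion (adjusted p = 1.57e-04) and 0.30 for ARNT depletion (adjusted p = 0.0264).

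Of 11 VHL regulators and other HIF degradation factors, 7 were higher and 2 lower in shARNT, and 3 higher and 5 lower in shBMAL1. All tested genes had 40.5% and 41.3%, and 31.9% and 31.5%. HSP90AA1, the chaperone that protects HIFα, rose in shARNT from 537 to 1250 CPM (1.22, adjusted p = 4.69e-16) and had 0.037 in shBMAL1 (adjusted p = 0.464). GNB2L1, which encodes RACK1, a competitor of HSP90 on HIF1α, fell in both, by 0.93 after ARNT depletion (adjusted p = 1.3e-14) and 0.45 after BMAL1 depletion (adjusted p = 6.29e-09). WSB1, an E3 ligase receptor directed at VHL, was higher in shBMAL1 (0.41, adjusted p = 0.00202) and had 0.098 in shARNT (adjusted p = 0.395), which became 0.34 (adjusted p = 0.00624) under scaling by library totals alone. SHARPIN, a subunit of the linear ubiquitin ligase, was lower in both, with -0.58 for BMAL1 depletion (adjusted p = 1.61e-09) and -0.44 for ARNT depletion (adjusted p = 2.33e-08).

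CUL2 carries receptors other than VHL, and 12 of them were tested. In shARNT 8 were higher and 3 lower (median 0.56), and in shBMAL1 3 were higher and 4 lower (median 0.013). All tested genes had 40.5% and 41.3%, and 31.9% and 31.5%. ZYG11A had the largest rise in shARNT (1.62, adjusted p = 3.29e-10), with 0.22 in shBMAL1 (adjusted p = 0.176). Its paralog ZYG11B was lower in shBMAL1 (-0.59, adjusted p = 2.67e-05) and had 0.082 in shARNT (adjusted p = 0.423), or 0.32 (adjusted p = 0.00387) under that scaling. FEM1C was lower in shARNT (-0.81, adjusted p = 1.1e-07) and higher in shBMAL1 (0.25, adjusted p = 0.0215). KLHDC2, a receptor for C-terminal degrons, was higher in both (1.01 and 0.54, adjusted p = 1.69e-12 and 1.51e-07).

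Of 7 other elongin and cullin partners, 5 were higher and 2 lower in shARNT, and 2 higher and 3 lower in shBMAL1. All tested genes had 40.5% and 41.3%, and 31.9% and 31.5%. TCEB3, elongin A, rose from 27.4 to 75.0 CPM in shARNT (1.45, adjusted p = 1.37e-15), and by 0.27 in shBMAL1 (adjusted p = 3.24e-04). RNF7, the RING paralog of RBX1 that serves CUL5, had -0.11 for ARNT depletion (adjusted p = 0.0664) and -0.15 for BMAL1 depletion (adjusted p = 0.0265), both called lower, but under scaling by library totals alone it had 0.13 in shARNT (adjusted p = 0.046) and the shBMAL1 call was lost. CUL3 was higher in both (0.65 and 0.55, adjusted p = 1.28e-10 and 7.61e-09). CUL4A was lower in shBMAL1 (-0.28, adjusted p = 1.34e-05) and had -0.088 in shARNT (adjusted p = 0.0704), which turned to 0.15 (adjusted p = 0.00465) under the same scaling. The DESeq2 Wald test called neither RNF7 nor CUL4A in shARNT.

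Cullins are switched on by NEDD8, which the COP9 signalosome removes. Of 21 tested genes of neddylation and cullin exchange, 15 were higher and 1 lower in shARNT, and 14 higher and 2 lower in shBMAL1. All tested genes had 40.5% and 41.3%, and 31.9% and 31.5%. GPS1, a signalosome subunit, had the largest rise of the list in both depletions. It stood at 61.5 CPM in the control, 98.4 CPM after BMAL1 depletion (0.68, adjusted p = 2.31e-10) and 211 CPM after ARNT depletion (1.78, adjusted p = 7.06e-18). COPS8, another subunit, rose by 0.66 in shBMAL1 (adjusted p = 1.24e-08) and 0.25 after ARNT depletion (adjusted p = 0.00109), and was lower in shARNT than in shBMAL1 (-0.41, adjusted p = 2.29e-06). DCUN1D2, a NEDD8 ligase cofactor, was lower in shBMAL1 (-0.49, adjusted p = 0.0015) and higher in shARNT (0.71, adjusted p = 6.77e-06). Of 7 ubiquitin-conjugating and RING-between-RING enzymes that serve cullin ligases, 3 were higher and 3 lower in shARNT. These were 42.9% and 42.9%, against 40.5% and 41.3% of all tested genes. In shBMAL1 4 were higher and 0 lower by edgeR (0 lower at an unadjusted p under 0.05 and 0 by DESeq2), against 31.9% and 31.5%. UBE2F, chosen after its values were seen and not called in shARNT, has a read-through row of its own, UBE2F-SCLY, which rose there from 15.97 to 26.08 CPM, so its value is uncertain. CDC34 rose in shARNT (1.25, adjusted p = 8.46e-15), and UBE2D2 fell there (-0.79, adjusted p = 1.81e-09) and rose in shBMAL1 (0.59, adjusted p = 2.05e-07).

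**Figure D4:**
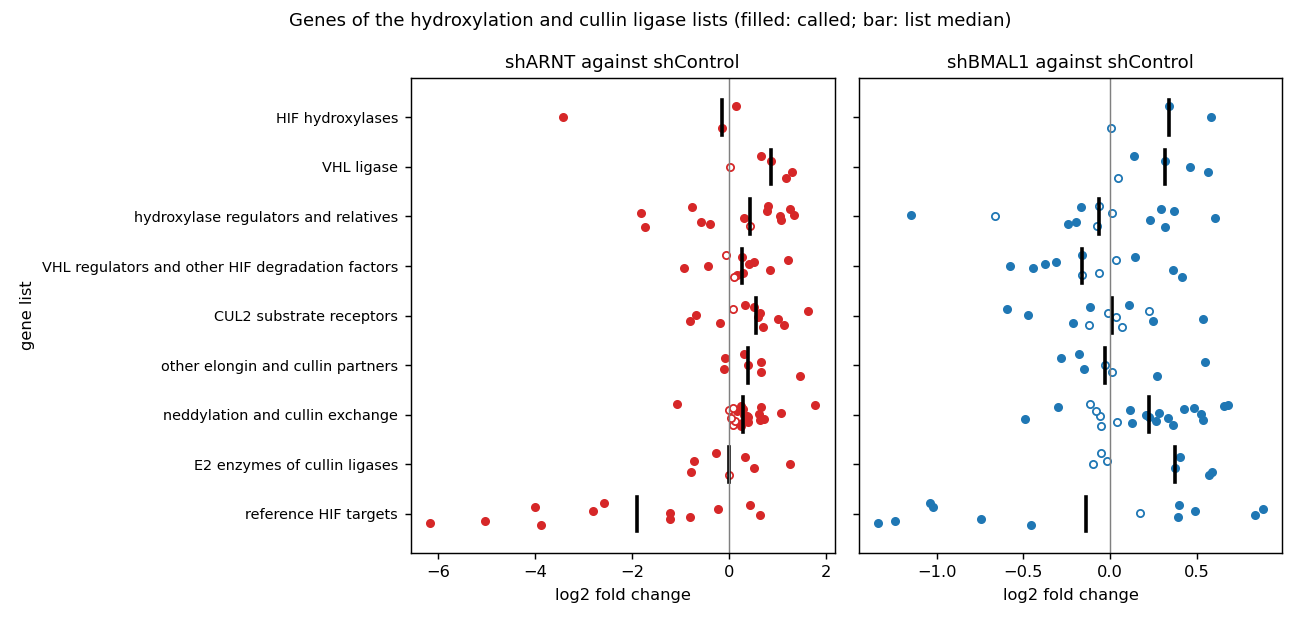
Log2 fold changes of the tested genes of each list, the HIF subunits left out, in shARNT (left) and shBMAL1 (right) against shControl, on axes of different range, with filled points for called genes and a black bar for the list median. In shARNT the bar of the VHL ligase lies at 0.85 and that of the reference HIF targets at -1.90, and in shBMAL1 the bars lie between -0.16 and 0.38.

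The genes most like each hydroxylase and VHL were found over 11227 genes by the root mean square difference of log2 CPM, centred on the mean of the 9 libraries. The libraries and their depth are shared by all genes, so that likeness is a description. EGLN3 was nearest to ANGPTL4, a secreted regulator of lipoprotein lipase (difference 0.11), COL5A1, a fibrillar collagen chain (0.126), and CP, ceruloplasmin (0.137). ANGPTL4 had log2 fold changes of -3.42 in shARNT and 0.42 in shBMAL1, beside -3.43 and 0.58 for EGLN3. VHL was nearest to CREG1 (0.0368), TIMELESS (0.0474) and AGAP3 (0.0505). HIF1AN was nearest to INTS8 (0.0526), UBA3 (0.0526), an enzyme of NEDD8 activation, and MRPL49 (0.0545). EGLN1 was nearest to MRPL2 (0.0428), DBR1 (0.0484) and JAK1 (0.055). The EGLN2 row had too few counts for this comparison.

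**Figure D5:**
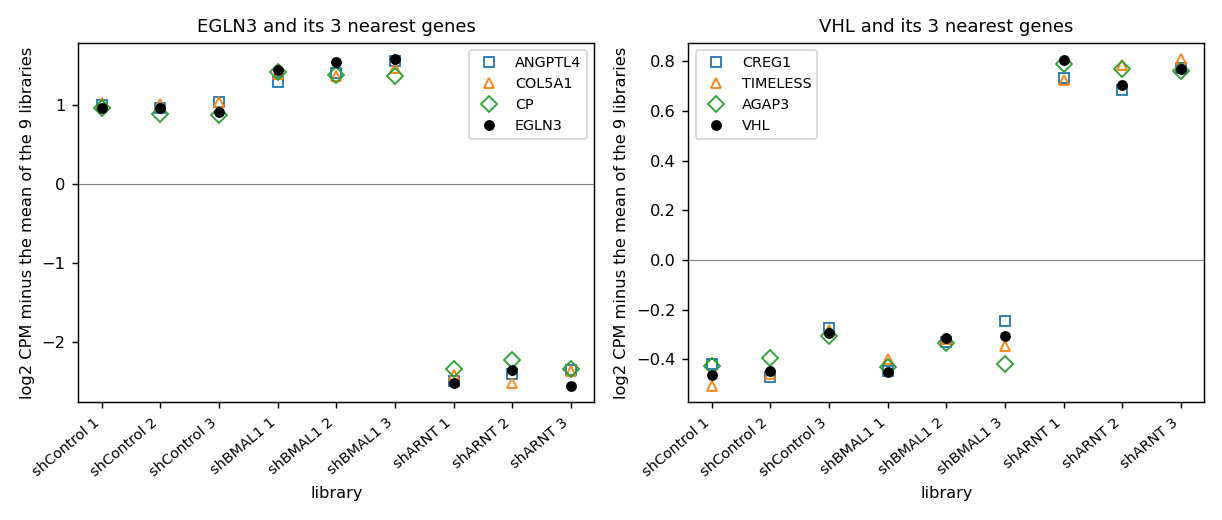
Log2 CPM minus the mean of the 9 libraries for EGLN3 (left) and VHL (right), in black, with the 3 genes nearest to each in open symbols. EGLN3 and its neighbours are highest in shBMAL1 and lowest in shARNT, while VHL and its neighbours are high in the 3 shARNT libraries alone.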

How the data were processed

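RNA of 9 A498 libraries was made into stranded mRNA libraries and sequenced in paired ends on a BGISEQ-500. The authors' methods name alignment to GRCh37 with SeqMan NGen and export of counts from ArrayStar, whereas the submitters' processing notes name STAR, DESeq2 and hg38. Annotation, use of strand and treatment of reads with several alignments are not given in the sources used here. The unit of the deposited table was expected counts, total reads per gene without normalization, and its 27716 rows held no comparisons by the authors. Between 720 and 787 values per library were fractions. A value of 0.05 stood for no reads and was set to 0, the rows of 45 repeated names were summed, and values were rounded to whole numbers for testing.

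All 9 libraries entered 1 quasi-likelihood fit in edgeR 4.0.16 (glmQLFit, glmQLFTest, TMM, filterByExpr, R 4.3.3) with the group as factor, and p-values were adjusted by Benjamini-Hochberg over 15551 genes. The replicates were labelled biological, and p-values measure the spread between these samples. No libraries agreed within sampling noise (chi-square per gene 4.29 or more within a group). The script was tested on simulated data. Alternatives were other scalings and filters, DESeq2 1.42.0, a minimum fold change by glmTreat, a replicate block, halved counts and leaving out each library. Positions and lengths came from GENCODE 44 lifted to GRCh37. The members and lists were chosen with earlier results of these data known. Named genes were the members, the HIF subunits, the largest called rise and fall of each list and contrast at an average log2 CPM of at least 2, the 3 genes nearest in pattern, and VEGFA, CA9 and NDRG1. Any other gene is named as chosen after its values were seen, apart from markers. Promoters of VHL and elongin C were not used here.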

Additional observations from a re-analysis of the deposited data

Results flagged for a closer look

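Each of the following genes stands out because the effects of the 2 depletions differed by the direct contrast of shARNT with shBMAL1, a difference of means that does not involve the controls, although all 9 libraries set its scaling and spread. All adjusted p come from edgeR (quasi-likelihood test, Benjamini-Hochberg). The log2 difference was -4.01 for EGLN3 (adjusted p = 1.75e-22), -0.44 for RBX1 (adjusted p = 4.04e-07), -0.19 for HIF1AN (adjusted p = 0.0109) and -0.16 for EGLN1 (adjusted p = 0.0256), all lower in shARNT. It was 1.120 for VHL (adjusted p = 2.79e-10), 0.72 for CUL2 (adjusted p = 1.68e-11), 0.53 for TCEB1 (adjusted p = 1.72e-08), 0.53 for TCEB2 (adjusted p = 1.18e-09) and 0.41 for the RAB4B-EGLN2 row (adjusted p = 4.31e-08), all higher in shARNT. With 40.1% of tested genes called higher and 41.1% lower in this contrast, the sizes say more than the calls. Against the shared controls, EGLN3 and the RAB4B-EGLN2 row were called in opposite directions in the depletions. Groups of 3 libraries were too small for the search for single outlying libraries. By chi-square per gene, replicate 1 of shControl stood apart from the other controls, as described above.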

How the results depend on the processing

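Over 456 repeats of the fold changes of the 8 tested genes, 424 kept direction and call, 18 lost the call, 1 gained it and 13 changed sign, of which 10 were called under neither setting. EGLN1 in shBMAL1 changed sign with size factors of DESeq2 (-0.0017), the Wald test of DESeq2 (-0.00086), a minimum of 100 counts (-0.0088) and a fit of the 6 libraries compared (-0.00036), and RBX1 in shARNT with the minimum of 100 counts (-0.012). Scaling by library totals alone reversed EGLN1 in shARNT (0.086) and in the direct contrast (0.034) and HIF1AN in the direct contrast (0.000902), and brought RBX1 in shARNT to a call (0.26). It left 1 of the genes lower in shARNT, 2 lower in the direct contrast, and 12 pathway genes lower in the direct contrast. Of all tested genes it left 32.9% lower in shARNT and 34.0% lower in the direct contrast, in place of 41.3% and 41.1%. A minimum fold change of 1.5 left the fold changes as they were but removed the calls of EGLN1 (-0.15) and HIF1AN (0.15) in shARNT. In shBMAL1 it removed those of EGLN3 (0.58), HIF1AN (0.34), CUL2 (0.57), RBX1 (0.46), TCEB1 (0.32) and TCEB2 (0.14), and in the direct contrast those of EGLN1 (-0.16), HIF1AN (-0.19), RBX1 (-0.44), TCEB1 (0.53) and TCEB2 (0.53). It left 1 of the genes lower in shARNT, 0 higher in shBMAL1 (glmTreat of edgeR), and 2 higher and 1 lower in the direct contrast. Pathway genes then numbered 17 higher and 9 lower in shARNT, 1 and 1 in shBMAL1, and 16 and 6 in the direct contrast. Calls fell among all 15551 genes as well, to 6966, 2110 and 6831 in place of 12723, 9852 and 12630. Without single libraries, HIF1AN in shARNT ranged from 0.092 to 0.22 EGLN1 in the direct contrast from -0.23 to -0.12, EGLN1 in shBMAL1 from -0.035 to 0.077 and RBX1 in shARNT from -0.023 to 0.081. Levels per kilobase moved with the transcript length chosen.

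The replicate numbers were shared between groups. Same-numbered libraries had correlations of -0.173 to 0.277 in their deviations, and libraries of unlike number had -0.228 to 0.339. No pairing by number was seen, but these values cannot show whether samples were prepared together. With the replicate number as a block, 12684, 9833 and 12591 genes were called in place of 12723, 9852 and 12630, and no call of the 8 genes changed. Not every library correlated best with its own number. The EGLN2 row held too few counts to be fitted, while the RAB4B-EGLN2 row held nearly all reads of that locus.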
